A study of Rattus norvegicus with 22 samples.

Results

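Xenobiotic metabolism enzymes are the proteins that oxidise, hydrolyse and conjugate foreign compounds. Their genes were examined in the lungs of rats with pulmonary embolism (PE) made with plastic beads. The genes were found by annotated symbol alone. They are the cytochromes P450 of families CYP1 to CYP4, the flavin-containing monooxygenases (FMO), the carboxylesterases (CES) and the aldehyde oxidases (AOX). Also included are the UDP-glucuronosyltransferases (UGT), the sulfotransferases (SULT) and the glutathione S-transferases (GST), cytosolic but for the mitochondrial and peroxisomal Gstk1. On the array 95 of the 14217 genes that had a probe set of their own fitted this rule, each read through its brightest probe set, and 9 further probe sets name several such genes at once. The 95 comprised 3 CYP1, 25 CYP2, 4 CYP3, 10 CYP4, 4 FMO, 5 CES, 2 AOX, 8 UGT, 14 SULT and 20 GST genes.

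Oxidation by a P450, FMO or AOX, or ester hydrolysis by a CES, exposes a chemical group on a lipid-soluble molecule, and UGT, SULT and GST enzymes then attach glucuronic acid, sulfate or glutathione to it so that it can be exported. The liver holds most of this capacity. The lung keeps a smaller set of its own, mainly in club cells of the airway epithelium, alveolar type II cells and endothelium, and several of these enzymes turn inhaled or blood-borne chemicals into reactive products. Many of the genes answer to ligand-activated transcription factors, and CYP1A1 is the standard readout of the aryl hydrocarbon receptor.

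The series holds 22 rats (Rattus norvegicus; adult males per the study's methods; weight about 350 g in the labels), 1 array each, in 6 groups. The right jugular vein was the route of injection, and rats were killed 2 or 18 h later. Mild PE rats received 1300000 polystyrene microspheres of 25 micron per 100 g body weight in 0.1 ml per 100 g (n = 4 at 2 h, n = 4 at 18 h). Severe PE rats received 2000000 of the same beads per 100 g in 0.15 ml per 100 g (n = 4 and n = 4). Vehicle rats received 0.15 ml per 100 g of the bead diluent, 0.01% Tween 20, without beads (n = 3 and n = 3). The detergent was thus common to all groups, but Mild PE rats received a smaller volume of it than Vehicle and Severe PE rats. All lungs were lavaged with 8 ml saline before they were excised. The beads block vessels without a blood clot, and the RNA came from whole lung tissue, so that fewer cells of a type and less RNA per cell cannot be told apart in any value below.

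Signals are given as log2 of the deposited array signal after quantile normalization, with signals under 16 set to 16, which is 4 on this scale and is called the floor. A probe set's level was not set against that of another gene. A gene passed the test when limma's Benjamini-Hochberg adjusted p over all probe sets was under 0.05 and the change was at least 1.5-fold. Of the 95 enzyme genes 44 had a mean log2 signal of 6 or more over the 22 arrays and 51 did not. The dim ones included all 8 UGT, 12 of the 14 SULT and 14 of the 25 CYP2 genes, and 3 genes (Cyp2a2, Gstm3 and Ugt2b15) lay at the floor on every array. The lung markers Scgb1a1 (club cells) and Sftpc (alveolar type II cells) had means of 14.80 and 14.74 in the 18 h Vehicle rats, well above the floor, and none of 5 hepatocyte markers passed in 18 h Severe PE. Arrays of 4 rats (rat 3 of the Vehicle and rat 1 of the Severe PE group at 2 h, with rat 4 of the Mild PE and rat 1 of the Vehicle group at 18 h) had the 4 highest ratios of 3′ to 5′ Gapdh signal (log2 ratios of 0.638, 0.525, 0.491 and 0.346, against 0.176 to 0.322 in the other 18). The lowest of the 4, that of the 2 h Vehicle rat, lay close to the rest. Counts without the 4 arrays, and the 18 h calls that were lost without them, are given below.

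Lower levels at 18 h in Severe PE lungs were the main pattern. Relative to the 18 h Vehicle rats, 16 of the 95 enzyme genes fell and none rose, in a comparison in which 5.61% of all 14217 genes fell and 4.29% rose. The 16 were Cyp1a1, Cyp2a3, Cyp2f4, Cyp2s1, Cyp2u1, Cyp3a9, Cyp4b1, Fmo1, Aox1, Ces1e, Sult5a1, Gsta4, Gstm1, Gstm2, Gstm7 and Gstt1, so that every family except UGT was represented. All 16 were among the 44 brighter genes, and of all 11082 genes this bright 752 fell. The median log2 difference was −0.13 over the 95 genes and 0 over all genes, and 64 of the 95 lay below zero against 52.1% of all genes. At an unadjusted p under 0.05 limma placed 30 enzyme genes lower and 4 higher, against 18% and 15.4% of all genes.

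**Figure D1:**
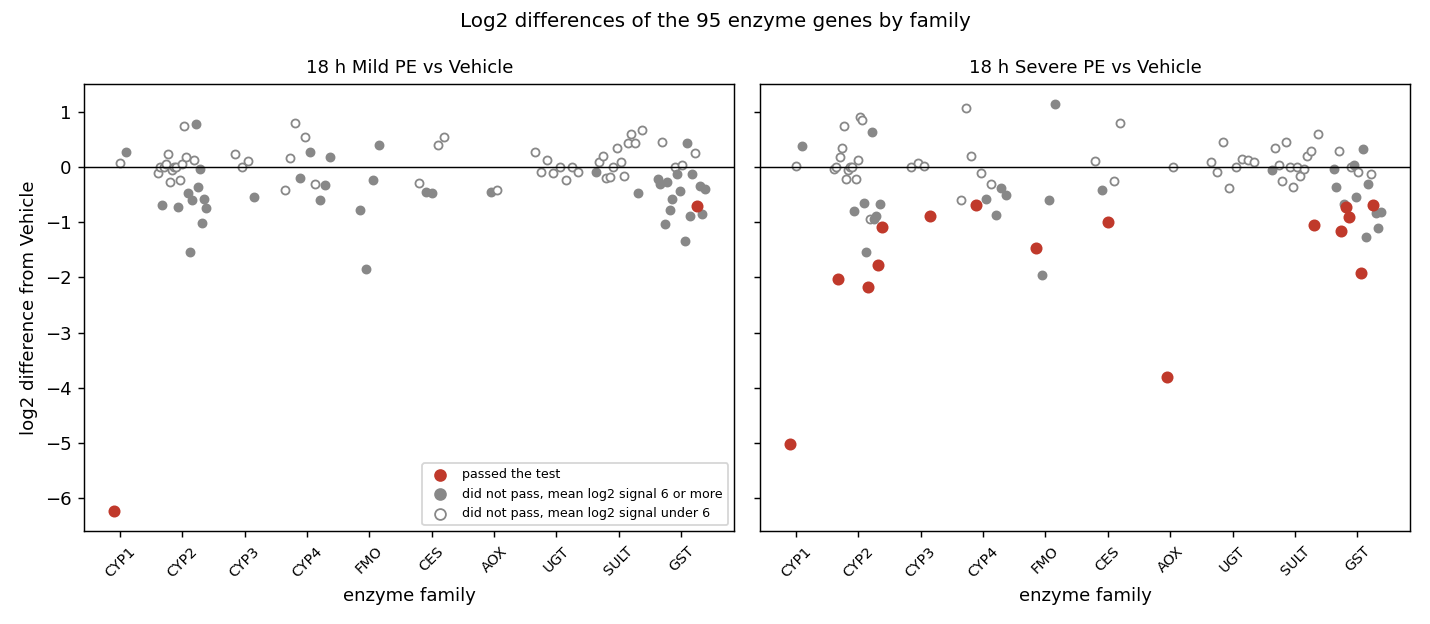
Log2 difference from the 18 h Vehicle rats (vertical axis) for each of the 95 enzyme genes, in columns by family, for Mild PE (left) and Severe PE (right); red points passed the test, grey points did not, and open points had a mean log2 signal under 6. In Severe PE the 16 red points all lie below zero and come from every family except UGT, while in Mild PE only Cyp1a1 and Gstt1 passed.

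Several of the 16 genes are neighbours in the genome. In the RefSeq annotation of the rat assembly GRCr8 the 7 mu-class GST genes with a probe set lie side by side on chromosome 2 in the order Gstm5, Gstm6l, Gstm7, Gstm3, Gstm2, Gstm1, Gstm4, and Gstm7, Gstm2 and Gstm1 were the 3 that fell. Among the mu-class genes that did not fall, Gstm3 and Gstm6l were dim. On chromosome 1 the genes Cyp2s1, Cyp2a3 and Cyp2f4 belong to a run of 10 CYP2 genes with a probe set, of which the other 7 did not pass. Of those 7 only Cyp2t1 was above the dim range (mean log2 signal 8.70, difference −0.66). A dim gene has little room to fall, so the dim neighbours cannot show whether the fall was limited to some genes of a cluster. Probe sequences were not used here, so signal shared by close relatives within a cluster cannot be told apart. The 250 bases before the RefSeq transcription start of these 6 genes are shown because the genes sit in a pair of gene clusters and fell together, and because the motifs of xenobiotic response can be read in them directly. Sequences run 5′ to 3′ toward the gene, and capitals mark any match to GCGTG (the core of the aryl hydrocarbon receptor site), TGACNNNGC (the core of the antioxidant response element), TTGCNNCAA (a C/EBP site) or TATAAA (the TATA box) on either strand, none of which overlapped another.
Gstm7 promoter (chr2:198260320-198260569, - strand): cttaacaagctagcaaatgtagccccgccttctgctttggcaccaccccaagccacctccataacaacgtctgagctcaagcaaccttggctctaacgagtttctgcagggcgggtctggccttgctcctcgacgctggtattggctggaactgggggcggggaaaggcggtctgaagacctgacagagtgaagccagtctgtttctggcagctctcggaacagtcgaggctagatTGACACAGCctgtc
Gstm2 promoter (chr2:198316918-198317167, - strand): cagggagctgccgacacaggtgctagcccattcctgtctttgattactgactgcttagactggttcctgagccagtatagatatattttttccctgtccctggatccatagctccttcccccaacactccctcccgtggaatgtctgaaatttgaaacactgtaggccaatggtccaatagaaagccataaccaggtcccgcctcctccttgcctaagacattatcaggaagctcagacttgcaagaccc
Gstm1 promoter (chr2:198343384-198343633, - strand): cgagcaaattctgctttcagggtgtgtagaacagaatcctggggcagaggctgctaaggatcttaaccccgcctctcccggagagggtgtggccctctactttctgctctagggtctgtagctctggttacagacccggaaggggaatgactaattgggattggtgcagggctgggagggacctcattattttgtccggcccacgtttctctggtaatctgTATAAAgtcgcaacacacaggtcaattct
Cyp2s1 promoter (chr1:90453074-90453323, - strand): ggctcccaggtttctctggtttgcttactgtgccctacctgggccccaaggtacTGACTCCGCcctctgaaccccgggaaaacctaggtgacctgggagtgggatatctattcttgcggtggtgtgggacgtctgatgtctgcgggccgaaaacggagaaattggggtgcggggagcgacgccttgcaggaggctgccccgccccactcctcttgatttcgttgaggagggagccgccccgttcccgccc
Cyp2a3 promoter (chr1:91299334-91299583, + strand): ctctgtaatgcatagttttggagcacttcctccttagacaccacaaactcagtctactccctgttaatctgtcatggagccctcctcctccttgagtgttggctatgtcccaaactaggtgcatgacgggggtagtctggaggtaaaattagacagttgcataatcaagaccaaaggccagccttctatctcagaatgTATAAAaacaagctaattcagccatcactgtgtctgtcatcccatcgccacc
Cyp2f4 promoter (chr1:91543518-91543767, + strand): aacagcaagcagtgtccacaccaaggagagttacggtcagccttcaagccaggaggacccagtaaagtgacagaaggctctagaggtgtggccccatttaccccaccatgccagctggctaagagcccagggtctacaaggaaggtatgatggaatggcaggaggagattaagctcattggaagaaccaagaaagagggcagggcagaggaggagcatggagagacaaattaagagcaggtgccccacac

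The antioxidant response letters stood in Gstm7 (starting 14 bases before the transcription start) and Cyp2s1 (196 bases before it), a TATA box stood in Gstm1 (29 bases before) and Cyp2a3 (52 bases before), and Gstm2 and Cyp2f4 held none of the 4 motifs in this window. Promoters were found for 82 of the 95 enzyme genes and for 14 of the 16 that fell. Cyp1a1 and Gstt1 had none, so the counts below leave out Cyp1a1. Among the 14, the antioxidant response letters were present in 3 (the third being Cyp4b1), against 10.1% of all 33469 promoter windows. The aryl hydrocarbon receptor letters were present in 2 (Cyp2u1 and Gsta4), against 25.9% of all windows. The C/EBP letters were present in 1 (Fmo1), against 1.75%, and TATAAA in 2, against 12.9%. These are matches of letters and show no binding.

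Cyp1a1, which oxidises polycyclic aromatic hydrocarbons, differed most of all the enzymes. Its log2 signal was 10.01, 10.03 and 10.68 in the 18 h Vehicle rats. In all 4 of the 18 h Mild PE rats it was at the floor of 4. In the 18 h Severe PE rats it was 4, 5.35, 4 and 7.5. Every embolised rat at 18 h therefore lay below every Vehicle rat, and 6 of the 8 were at the floor. Relative to Vehicle the signal was at least 75.5-fold lower in Mild PE (limma adjusted p = 0.00142) and differed by −5.02 ± 0.92 (SE) on the log2 scale in Severe PE (adjusted p = 0.0298), a value that depends on the floor (−3.86 with signals under 64 set to 64). The Mild PE call remained when each of the 7 rats was left out in turn (largest adjusted p 0.0344). The Severe PE call held in only 1 of its 7 such runs. The floor values carry no spread, so the error of the Mild PE difference rests on the Vehicle rats and on limma's moderation. When the arrays of highest Gapdh ratio were left out, the Mild PE call was lost (log2 difference −6.35, adjusted p = 0.27), and so was the Severe PE call.

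At 2 h the Cyp1a1 signal was 9.82, 9.63 and 9.06 in the Vehicle rats and 8.52, 9.29, 9.07 and 10.56 in the Severe PE rats, which overlapped. The 2 h Mild PE rats had 4, 7.05, 4.93 and 7.71, all below every other 2 h rat. The difference of Mild PE from Vehicle at 2 h was −3.58 ± 0.98 (SE) and did not pass the test (adjusted p = 0.232). The Severe minus Mild difference at 2 h was 3.43 ± 0.91, which did not pass either (adjusted p = 0.187). Cyp1a2, the neighbour of Cyp1a1 in the genome, was near the floor throughout, and Cyp1b1, a further target of the aryl hydrocarbon receptor, differed by 0.38 ± 0.24 in 18 h Severe PE (adjusted p = 0.418).

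**Figure D2:**
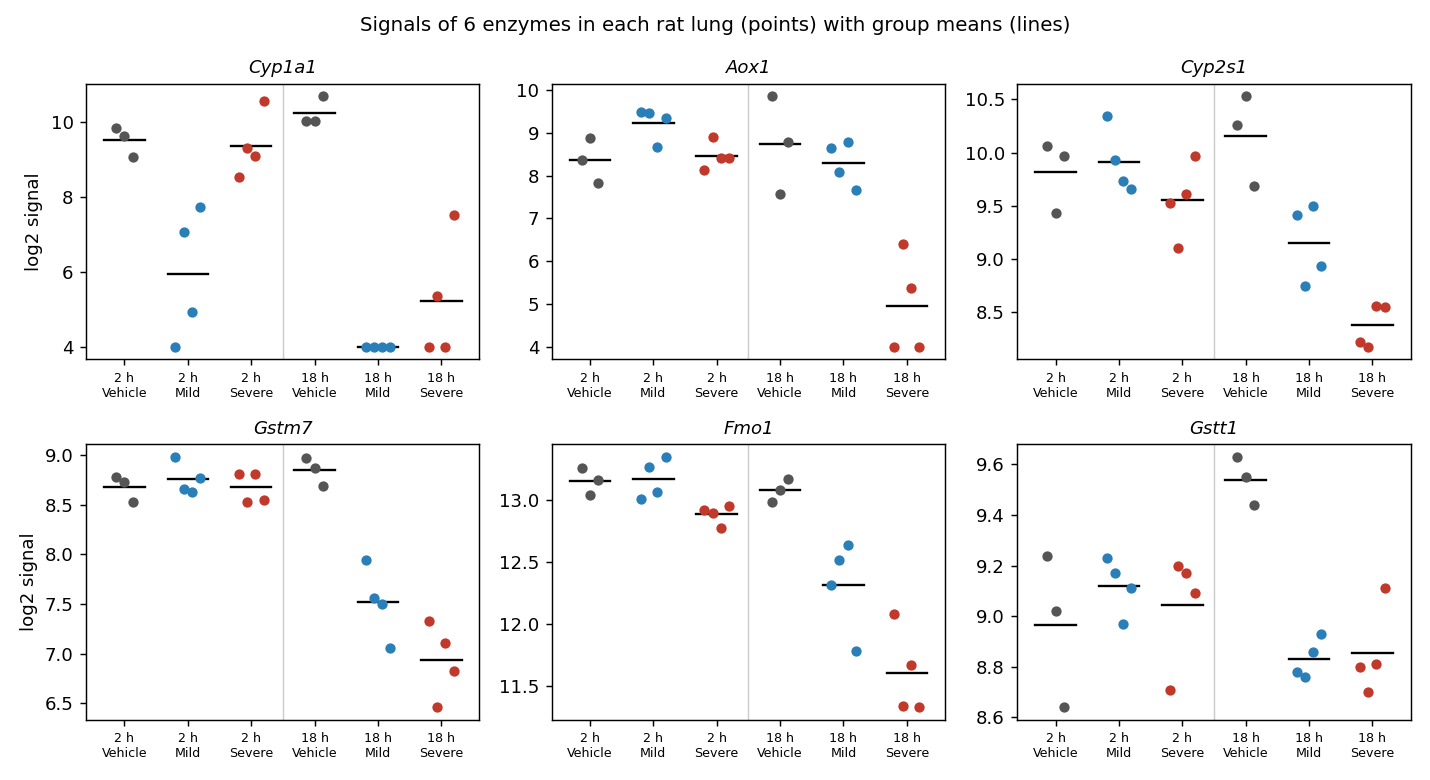
Log2 signal (vertical axes) of 6 enzyme genes in each of the 22 rats (points) with group means (lines), by time and treatment. Cyp1a1 was at the floor of 4 in all 4 of the 18 h Mild PE rats and high in the Vehicle rats of both times, Aox1 was low in 18 h Severe PE alone, Cyp2s1, Gstm7 and Fmo1 had their lowest means in 18 h Severe PE, and Gstt1 was at 9.44 to 9.63 in the 18 h Vehicle rats.

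The genes for receptors and regulators that act on these enzymes were followed beside them. Of 14 such genes, all measured, 12 did not pass the test in 18 h Severe PE, among them Ahr (the aryl hydrocarbon receptor, 0.20 ± 0.58, adjusted p = 0.891), its partner Arnt (0.09 ± 0.22, adjusted p = 0.867) and its target Tiparp (0.31 ± 0.18, adjusted p = 0.347). Nr1i3, the constitutive androstane receptor, rose from the floor in all 3 Vehicle rats to a mean of 5.00 (adjusted p = 0.0387), and Hnf4a, a liver transcription factor, fell to the floor in all 4 Severe PE rats from a mean of 4.93 (adjusted p = 0.0052). Both signals were dim. In 18 h Severe PE 5.61% of all genes fell and 4.29% rose. Tiparp and Cyp1b1 do not stand for every target of the aryl hydrocarbon receptor. Aldh3a1 (−1.97 ± 0.34, limma adjusted p = 0.0259) and Nqo1 (−0.61 ± 0.07, limma adjusted p = 0.0104), given below among the enzymes of the same pathways, fell in 18 h Severe PE. The part of the receptor in these values was not tested.

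Among the CYP2 genes, Cyp2f4, which activates naphthalene in club cells, fell most. It was 11.14, 12.07 and 11.19 in the 18 h Vehicle rats, 11.61, 10.94, 10.86 and 10.05 in Mild PE, and 8.95, 8.93, 9.5 and 9.78 in Severe PE. The Severe PE rats lay below all other rats of the time, and the log2 difference from Vehicle was −2.18 ± 0.33 (adjusted p = 0.0196), a 4.52-fold reduction, against −0.60 ± 0.42 in Mild PE (adjusted p = 0.53). Cyp2a3, a respiratory P450 that acts on nicotine-derived nitrosamines, was 10.25, 10.87 and 9.97 in Vehicle, 9.68, 9.25, 10.08 and 9.68 in Mild PE, and 8.14, 8.12, 8.51 and 8.55 in Severe PE. Its differences were −2.03 ± 0.24 in Severe PE (adjusted p = 0.0119) and −0.69 ± 0.28 in Mild PE (adjusted p = 0.266), with the Severe PE rats again clear of the rest.

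Cyp2s1, found in epithelia that face the outside, was 10.26, 10.53 and 9.69 in the 18 h Vehicle rats, 9.41, 8.75, 9.5 and 8.94 in Mild PE, and 8.22, 8.18, 8.56 and 8.55 in Severe PE. The 3 groups did not overlap. The log2 difference was −1.78 ± 0.23 in Severe PE (adjusted p = 0.0137) and −1.01 ± 0.28 in Mild PE (adjusted p = 0.134). Cyp2u1, which hydroxylates long-chain fatty acids, was 9.26 to 9.56 in Vehicle, 8.49 to 8.9 in Mild PE and 8.22 to 8.49 in Severe PE, with differences of −1.08 ± 0.10 in Severe PE (adjusted p = 0.00815) and −0.74 ± 0.12 in Mild PE (adjusted p = 0.0598). The other 21 CYP2 genes did not pass in either comparison at 18 h, and 14 of the 25 were dim.

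Cyp2f4 is known from club cells, and the marker genes of lung cells were read beside the enzymes. None of 5 measured club cell markers passed in 18 h Severe PE, and Scgb1a1, the secretoglobin that defines the cell, differed by −0.09 ± 0.06 (adjusted p = 0.426). The other 4 had differences of −0.09 ± 0.59 (Scgb3a1), −0.73 ± 0.35 (Aldh1a1), −1.35 ± 0.40 (Krt15, adjusted p = 0.0999) and 0.48 ± 0.46 (Muc5b). The summed club markers, most of whose signal is that of Scgb1a1, were 15.01 to 15.46 in Vehicle and 15.00 to 15.23 in Severe PE, which overlapped. The summed endothelial markers were 14.95 to 15.01 in Vehicle and 14.14 to 14.42 in Severe PE, and 2 of 5 passed as lower (Tie1 and Vwf). The summed alveolar type I markers had means of 16.06 in Vehicle and 15.61 in Severe PE and did not overlap, and 1 of 5 passed as lower (Cav1). The summed alveolar type II markers were 16.52 to 16.71 in Vehicle and 16.67 to 16.77 in Severe PE, and 1 of 6 passed, as higher (Lamp3, 1.05 ± 0.22, adjusted p = 0.0399). The summed macrophage markers had means of 13.10 in Vehicle and 13.41 in Severe PE and the neutrophil markers 14.01 and 14.62, with none of 4 passing in either list. Of all genes 5.61% fell and 4.29% rose in 18 h Severe PE against Vehicle. The part of these marker lists in the enzyme results was not tested.

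In the other P450 families, Cyp4b1, a lung-rich enzyme that hydroxylates fatty acids and activates ipomeanol, was 13.16 to 13.35 in Vehicle, 12.64 to 13.26 in Mild PE and 12.54 to 12.65 in Severe PE. Its difference in Severe PE was small but tight at −0.69 ± 0.06 (adjusted p = 0.00772), and in Mild PE it was −0.20 ± 0.17 (adjusted p = 0.607). Cyp3a9, a steroid-oxidising member of the 3A subfamily, was 6.88 to 6.95 in Vehicle and 5.73 to 6.38 in Severe PE (−0.89 ± 0.19, adjusted p = 0.0403). The other 3 CYP3A genes were dim, and none of the other 9 CYP4 genes passed, although all 5 CYP4F genes had differences below zero (−0.87 to −0.11).

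The flavin-containing monooxygenases oxygenate nitrogen and sulfur atoms, and Fmo2 is the main lung form in many mammals. Fmo1 was 12.99, 13.08 and 13.17 in the 18 h Vehicle rats, 12.32, 12.52, 12.64 and 11.78 in Mild PE, and 12.08, 11.34, 11.67 and 11.33 in Severe PE. The Vehicle rats lay above all embolised rats, and the difference was −1.47 ± 0.20 in Severe PE (adjusted p = 0.016) and −0.77 ± 0.21 in Mild PE (adjusted p = 0.138). Fmo5, a form with few of the usual FMO substrates, went the other way without passing, with 9.75, 8.96 and 9.61 in Vehicle and 10.69, 10.24, 10.17 and 11.24 in Severe PE (1.15 ± 0.33, adjusted p = 0.0924). Fmo4 differed by −0.59 ± 0.22 (adjusted p = 0.161).

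Fmo2 and Cyp2e1, the ethanol-inducible P450, varied widely from rat to rat at 18 h after embolism. The SD of Cyp2e1 was 2.27 in Severe PE and 1.41 in Mild PE, the largest of the 95 genes in either group, and that of Fmo2 was 0.91 and 1.17. At 18 h Fmo2 was 12.7, 12.72 and 12.21 in Vehicle, 9.86, 9.72, 12.24 and 10.95 in Mild PE rats 1 to 4, and 11.36, 10.22, 9.46 and 11.28 in Severe PE rats 1 to 4. Cyp2e1 was 11.71, 11.09 and 10.28 in Vehicle, 8.61, 8.13, 11.24 and 9.97 in Mild PE, and 11.06, 8, 7.12 and 11.77 in Severe PE. Mild PE rat 3 and Severe PE rats 1 and 4 were the highest embolised rats for Cyp2e1, and each was also among the highest of its group for Fmo2. At 2 h the 11 rats ranged only from 9.2 to 10.04 for Cyp2e1 and from 11 to 12.42 for Fmo2. Neither gene passed in 18 h Severe PE (Fmo2 −1.96 ± 0.51, adjusted p = 0.0734; Cyp2e1 −1.54 ± 1.28, adjusted p = 0.527), although one of the other Fmo2 probe sets did (−1.90, adjusted p = 0.0158) and the remaining one did not (−2.14, adjusted p = 0.0779).

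**Figure D3:**
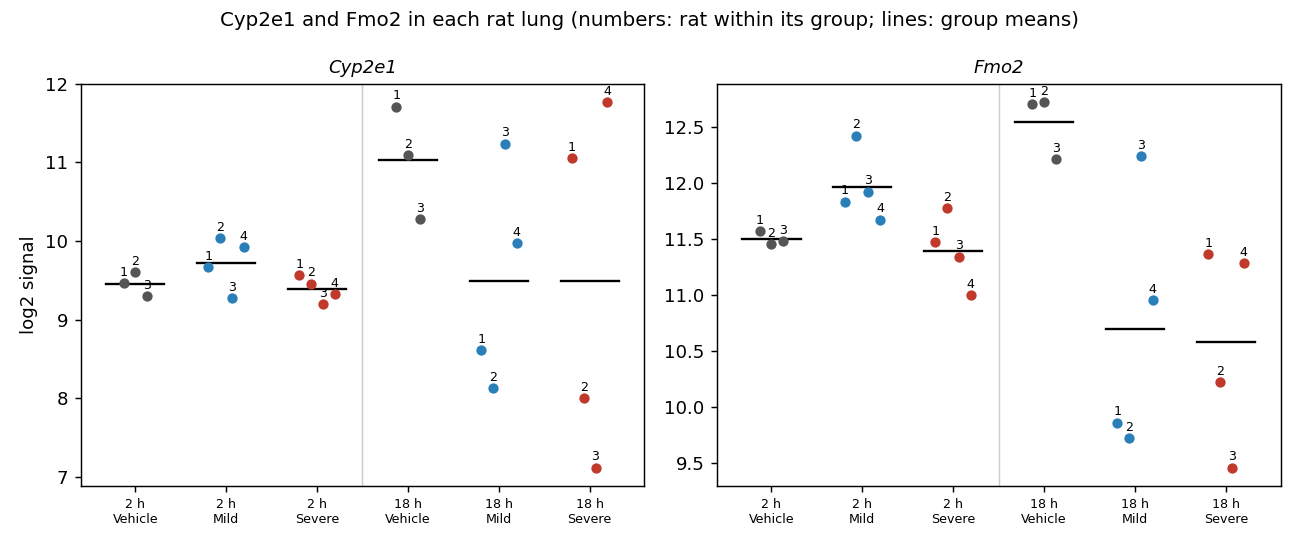
Log2 signal (vertical axes) of Cyp2e1 and Fmo2 in each rat, numbered within its group, with group means as lines. Among the 18 h embolised rats Mild PE rat 3 and Severe PE rats 1 and 4 are high for Cyp2e1, Mild PE rats 1 and 2 and Severe PE rats 2 and 3 are low for both genes, and the 2 h rats lie close together.

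Aldehyde oxidase 1 (Aox1), which oxidises aldehydes and nitrogen-containing rings, was low only in 18 h Severe PE among the 6 groups. Its signal was 9.86, 7.58 and 8.79 in the 18 h Vehicle rats, 8.64, 8.09, 8.79 and 7.66 in Mild PE, and 4, 6.4, 5.38 and 4 in Severe PE, where 2 rats were at the floor. Across the 2 h rats it ranged from 7.82 to 9.48. All 4 Severe PE rats at 18 h lay below the other 18 rats. The difference from Vehicle was −3.80 ± 0.82 in Severe PE (adjusted p = 0.0442) and −0.45 ± 0.59 in Mild PE (adjusted p = 0.743). The Severe PE call was lost without any 1 of the 7 rats (adjusted p 0.0543 to 0.117), and the size shrank to −2.64 with the floor at 64. Aox4 was dim.

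Carboxylesterases, which cleave ester drugs and lipids, were represented by Ces1e and Ces1d above the dim range. Ces1e was 7.57, 7.74 and 7.45 in the 18 h Vehicle rats and 6.92, 6.08, 6.73 and 6.61 in Severe PE (means 7.59 and 6.59, SE of the difference 0.21, adjusted p = 0.0431). Ces1d was 13.29 to 13.55 in Vehicle and 12.87 to 13.14 in Severe PE (−0.42 ± 0.09, adjusted p = 0.0486), a change under 1.5-fold. The groups did not overlap for either gene.

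The glutathione S-transferases gave 5 of the 16 genes. Among the mu class, Gstm7 was 8.97, 8.87 and 8.69 in the 18 h Vehicle rats, 7.94, 7.56, 7.5 and 7.06 in Mild PE, and 7.33, 6.46, 7.11 and 6.83 in Severe PE. All 8 embolised rats lay below Vehicle, with differences of −1.91 ± 0.22 in Severe PE (adjusted p = 0.0107) and −1.33 ± 0.21 in Mild PE (adjusted p = 0.0548). Gstm2 was 12.21 to 12.38 in Vehicle, 11.44 to 11.83 in Mild PE and 11.23 to 11.55 in Severe PE (Severe PE difference −0.90 ± 0.11, adjusted p = 0.0117). Gstm1 was 12.16 to 12.54, 11.25 to 11.87 and 11.42 to 11.77 in the same groups (−0.72 ± 0.13, adjusted p = 0.0266). Their neighbours in the cluster did not move alike, as Gstm4 differed by 0.05 ± 0.08 and Gstm5 by −0.53 ± 0.12 (adjusted p = 0.767 and 0.0516).

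Gsta4, which conjugates the lipid peroxidation product hydroxynonenal, was 10.93, 11.61 and 11.61 in the 18 h Vehicle rats, 10.48, 10.05, 10.38 and 10.5 in Mild PE, and 10.32, 10.23, 9.95 and 10.42 in Severe PE. Its difference was −1.15 ± 0.21 in Severe PE (adjusted p = 0.0297) and −1.03 ± 0.21 in Mild PE (adjusted p = 0.0799), and Severe minus Mild was −0.12 ± 0.14. Gsta1, of the same class, differed by −0.03 ± 0.14 (adjusted p = 0.957). The theta-class gene Gstt1, whose enzyme acts on small halogenated molecules, was 9.63, 9.55 and 9.44 in the 18 h Vehicle rats, 8.78, 8.76, 8.86 and 8.93 in Mild PE, and 8.8, 8.7, 8.81 and 9.11 in Severe PE. It passed in both (Mild PE −0.71 ± 0.07, adjusted p = 0.0282, and Severe PE −0.68 ± 0.11, adjusted p = 0.0237). Each call held in only 1 of the 7 runs that left out 1 rat. Neither held without the arrays of highest Gapdh ratio. The 2 h rats had 8.64 to 9.24, so the 18 h Vehicle rats lay above all 19 other rats for this gene.

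The pi-class Gstp1, a major GST of the lung, differed by −0.31 ± 0.10 in 18 h Severe PE (adjusted p = 0.125), the omega-class Gsto1 by 0.33 ± 0.16 (adjusted p = 0.29) and the mitochondrial and peroxisomal Gstk1 by −0.66 ± 0.23 (adjusted p = 0.138). Gsta3 differed by −0.36 ± 0.31 (adjusted p = 0.541). Of the 20 GST genes 17 had a difference below zero, with a median of −0.59, against −0.22 over the 25 CYP2 genes and 0.10 over the 8 UGT genes, all of which were dim. A dim gene has little room to fall, and over the brighter genes alone the order of GST and CYP2 turned, with medians of −0.70 over 16 GST and −0.93 over 11 CYP2 genes.

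Among the 44 brighter genes 28 did not pass in 18 h Severe PE, 23 with a difference below zero and 5 above. The matching shares over all brighter genes were not counted, so this split is a description only. Over all genes of any brightness, passing or not, 52.1% lay below zero in this comparison. The widest of the 23 enzyme genes below zero, beside Fmo2 and Cyp2e1, were Gsto2 (−1.27 ± 0.62, adjusted p = 0.275) and Gstt3 (−1.11 ± 0.40, adjusted p = 0.155). Gstt3 and Gstt2 flank Gstt1 on chromosome 20. Gstt2 was 8.66, 8.54 and 8.61 in the 18 h Vehicle rats, 8.25, 8.04, 8.71 and 8.07 in Mild PE, and 8.17, 7.89, 7.75 and 7.28 in Severe PE (−0.83 ± 0.21, adjusted p = 0.0656), so that the Severe PE rats lay below Vehicle while the Mild PE rats overlapped both. Gstz1, which also breaks down tyrosine as maleylacetoacetate isomerase, was 9.42 to 9.59 in Vehicle and 8.08 to 9.18 in Severe PE (−0.81 ± 0.26, adjusted p = 0.117).

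The arachidonic acid epoxygenases of subfamily CYP2J did not move as a group. Cyp2j4 differed by −0.88 ± 0.36 and Cyp2j3 by −0.93 ± 0.56, whereas Cyp2j10 differed by 0.64 ± 0.42 (adjusted p = 0.205, 0.374 and 0.419). Cyp2c23, a further epoxygenase, was 8.49, 8.52 and 9.26 in the 18 h Vehicle rats, 8.22, 8.28, 7.89 and 7.76 in Mild PE, and 8.12, 7.92, 7.57 and 8.25 in Severe PE. All 8 embolised rats lay below Vehicle, but the differences did not pass (Mild PE −0.72, adjusted p = 0.195; Severe PE −0.79 ± 0.26, adjusted p = 0.121). Cyp4f5, of a subfamily that hydroxylates leukotrienes and other fatty acids, was 7.7 to 8.35 in Vehicle and 6.65 to 7.54 in Severe PE (−0.87 ± 0.25, adjusted p = 0.093). The only difference above 1 among the brighter genes was that of Fmo5.

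Of the sulfotransferases only Sult5a1 fell, from 9.61, 9.84 and 9.43 in the 18 h Vehicle rats to 8.38, 8.66, 8.44 and 8.86 in Severe PE (−1.04 ± 0.15, adjusted p = 0.0189), with the Mild PE rats between at 9.08, 9.3, 9.38 and 8.86 (−0.47 ± 0.16, adjusted p = 0.205). Sult1a1, the phenol sulfotransferase and the only other SULT gene above the dim range, differed by −0.04 ± 0.18 (adjusted p = 0.959). The smallest p among the UGT2 genes belonged to Ugt2b10, which was at the floor in 3 of 4 Severe PE rats and 1 of 3 Vehicle rats (−0.37 ± 0.26, adjusted p = 0.457). Glucuronidation by the UGT1A enzymes could be read only from probe sets that name several genes.

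Enzymes that serve the same pathways were followed as a list of 33 further genes, of which 30 were measured. In 18 h Severe PE 8 fell and 1 rose, against 5.61% and 4.29% of all genes. The median difference of the 30 was −0.39, against 0 over all genes. Those that fell included Inmt, which methylates indoleamines (−2.37 ± 0.50, adjusted p = 0.0433), Aldh3a1, an aldehyde dehydrogenase (−1.97 ± 0.34, adjusted p = 0.0259), Pon3, a lactonase (−1.27 ± 0.14, adjusted p = 0.0107) and Nqo1, the quinone reductase that is a standard target of NRF2 (−0.61 ± 0.07, adjusted p = 0.0104). The others were Cyb5r3, Maob, Aldh2 and Mgst3. The gene that rose was Ugdh, which makes the UDP-glucuronic acid used by UGT enzymes (1.70 ± 0.07, adjusted p = 0.0015), and it also rose in 18 h Mild PE (1.16 ± 0.14, adjusted p = 0.0376). Por, the electron donor of the P450 enzymes, differed by 0.11 ± 0.26 (adjusted p = 0.859). None of 9 measured export transporters passed, at a median of 0.05.

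Dose was compared at 18 h in rats that share the same Vehicle controls. In Mild PE 2 of the 95 enzyme genes fell (Cyp1a1 and Gstt1) and none rose, against 0.675% and 0.760% of all genes, and 20 were lower and 4 higher at an unadjusted p under 0.05, against 13.6% and 11.1% of all genes. For the 16 genes that fell in Severe PE the Mild PE differences ran from −6.24 (Cyp1a1) to −0.20 (Cyp4b1), with a median of −0.70 against −1.12 in Severe PE. The 2 doses were also compared directly. No enzyme gene and 0% of all genes passed between 18 h Severe and Mild PE with limma. An unadjusted p under 0.05 was found for 15 enzyme genes, a share no larger than the 17.3% of all genes. Of the 15, 14 were lower and 1 higher in Severe PE, against 9.26% and 8.04% of all genes. None passed in a fit without limma's moderation and 4 passed when all 22 arrays were fitted together, against 0 and 210 of all genes. Over the 16 genes the Severe minus Mild difference ran from −3.35 ± 0.60 for Aox1 (adjusted p = 0.11) and −1.58 ± 0.36 for Cyp2f4 (adjusted p = 0.152) to 1.21 ± 0.77 for Cyp1a1 (adjusted p = 0.553).

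At 2 h few enzyme genes passed. In Mild PE 1 gene fell and none rose, against 0.0985% and 0.331% of all genes. It was Ces1c, a dim carboxylesterase gene with 5.26, 5.23 and 4.84 in Vehicle and the floor in all 4 Mild PE rats (at least 2.16-fold lower, adjusted p = 0.0297). In Severe PE no enzyme gene passed, against 0.0422% of all genes. By limma 4 had an unadjusted p under 0.05 (8.45% of all genes). None passed without moderation or by the fit on all arrays, against 3 and 128 of all genes. Between 2 h Severe and Mild PE no enzyme gene passed, against 0.549% of all genes. By limma 11 had an unadjusted p under 0.05 (13.8% of all genes). None passed without moderation and 2 by the fit on all arrays, against 32 and 109 of all genes. Between the Vehicle rats of 18 h and 2 h no enzyme gene passed, nor did any of all genes (0%). The means were still at least 1.5-fold apart for 13 enzyme genes and 18.2% of all genes. Cyp2e1 was 1.56 and Fmo2 1.05 higher at 18 h. By limma 9 enzyme genes were higher and none lower at an unadjusted p under 0.05, against 13.1% and 7.22% of all genes. None passed without moderation or by the fit on all arrays, against 0 and 494 of all genes.

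**Figure D4:**
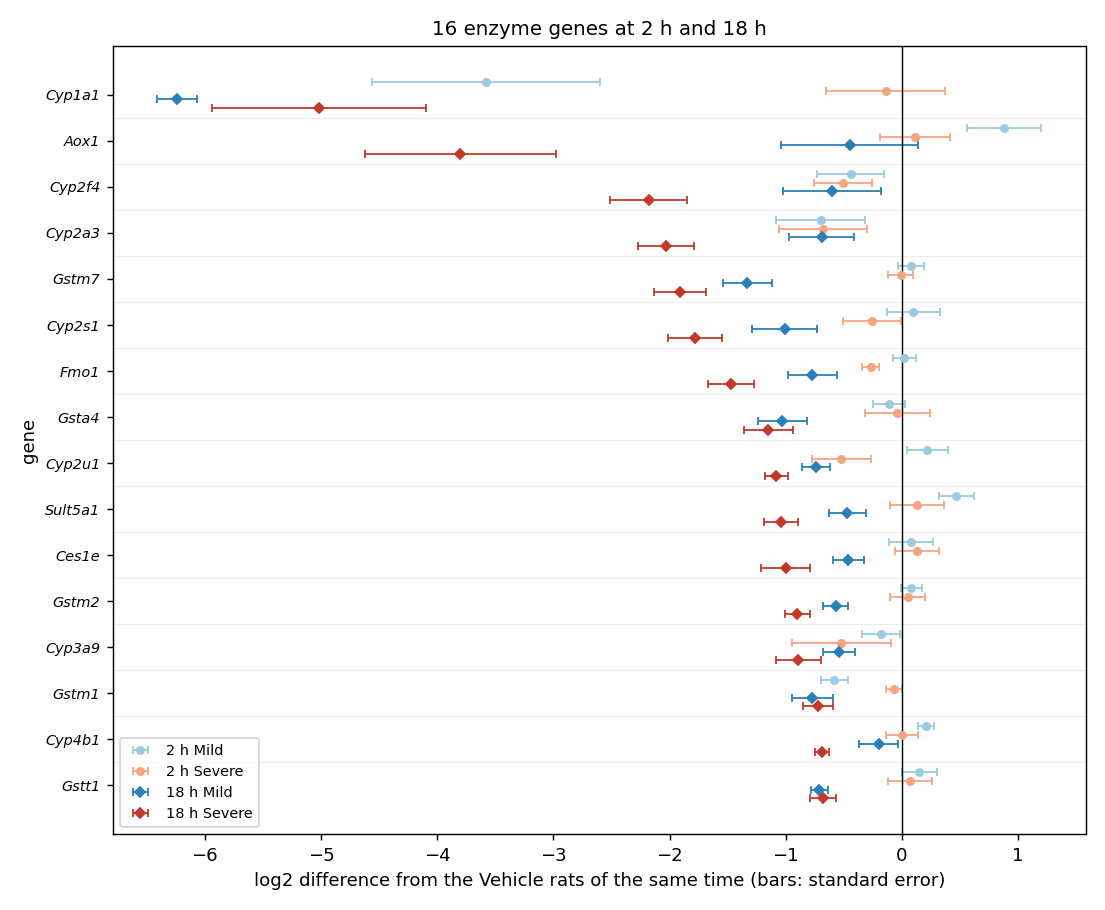
Log2 difference from the Vehicle rats of the same time (horizontal axis, bars are standard errors) for the 16 genes that fell in 18 h Severe PE, in Mild and Severe PE at 2 h (circles) and 18 h (diamonds). At 2 h the Severe PE differences lie between −0.68 and 0.13, and at 18 h they lie between −5.02 and −0.68.

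Whether the effect changed with time was tested on all 22 arrays as the 18 h effect minus the 2 h effect, each against the Vehicle rats of its time. For Severe PE 12 enzyme genes passed, all with a lower effect at 18 h, and none with a higher one, against 4.86% and 3.36% of all genes. They were Aox1 (−3.91 ± 0.78, adjusted p = 0.00632), Cyp1a1 (−4.88 ± 1.17, adjusted p = 0.0191), Gstm7 (−1.90 ± 0.27, adjusted p = 0.000767), Cyp2f4, Cyp2s1, Fmo1, Sult5a1, Ces1e, Gsta4, Gstm2, Gstt1 and Cyp4b1. For Mild PE 2 passed, Gstm7 (−1.41 ± 0.27, adjusted p = 0.025) and Gstt1 (−0.86 ± 0.19, adjusted p = 0.0477), against 0.647% of all genes with a lower effect. Cyp1a1 in Mild PE, already low at 2 h, did not pass (−2.66 ± 1.17).

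In the 2-way model of time and dose, 21 enzyme genes passed for time (adjusted p under 0.05 and group means spread over at least 1.5-fold), of which 17 were lower and 4 higher at 18 h, against 10.6% and 12.1% of all genes. The 4 higher were Ces5a, Cyp2b21, Fmo5 and Gsto1, of which Ces5a and Cyp2b21 were dim (mean log2 signals of 5.66 and 4.41). The lowest adjusted p of the 21 belonged to Gsta4 (8.62e-06). For dose 16 passed against 13.7% of all genes, and for the interaction of time and dose 7 passed against 5.35%. The 7 were Aox1, Cyp2s1, Fmo1, Gstm2, Gstm7, Gstt1 and Sult5a1, with the lowest adjusted p for Gstm7 (0.00232).

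Of the 16 calls in 18 h Severe PE, those of Cyp2a3, Cyp2s1, Cyp2u1, Cyp4b1, Gstm2 and Gstm7 held when each of the 7 rats was left out in turn. The other 10 were lost without at least 1 rat, and most of them without nearly any rat. Aox1 passed in 0 of the 7 runs, and Ces1e, Cyp1a1, Cyp3a9, Gsta4, Gstm1 and Gstt1 each passed in 1. Sult5a1 passed in 3, Cyp2f4 in 4 and Fmo1 in 5. The count fell to 10 without Vehicle rat 1, Severe PE rat 1 or Severe PE rat 2, to 8 without Vehicle rat 2 or rat 3, to 7 without Severe PE rat 3 and to 12 without Severe PE rat 4, and it was 10 without the arrays of highest Gapdh ratio. Without those arrays the Severe PE calls of Aox1, Ces1e, Cyp1a1, Cyp3a9, Gstt1 and Sult5a1 were lost. The Mild PE calls of Cyp1a1 and Gstt1 were lost as well. Over all genes these fits of 18 h Severe PE gave 640 to 1015 calls against 1408.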

How the data were processed

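RNA from whole lung of 22 rats was hybridized to Affymetrix rat genome arrays. The deposited signal intensity values are linear, scaled by the authors to a 2% trimmed mean of 500.1 to 500.2 per array; the software that made them is not given in the sources used here, and the study's methods describe other (GC-RMA log2) values. Of 31099 probe sets, 57 controls were left out. Signals under 16 were set to 16 (13.6 to 17.3% of probe sets per array), log2 transformed and quantile normalized. Each pair of groups was fitted with limma 3.58.1 in R 4.3.3 on its own arrays, and time, dose and their interaction on all 22. p-values were adjusted (Benjamini-Hochberg) over 31042 probe sets; a change needed an adjusted p under 0.05 and 1.5-fold. Probe sets were named from the platform annotation (20826 with 1 symbol, 436 with several, 9780 without), and the brightest represents a gene. Named genes were those that passed in a pairwise comparison or for interaction, the smallest p of each family in 18 h Severe PE, and lung enzymes fixed by name, of which Cyp2b1, Cyp2b2 and Ugt1a6 share probe sets with other genes and some, Aox3 among them, were not analysed here; others are named as neighbours, contrasts or examples chosen after their values were seen. Genes and lists were chosen with earlier results of these data known. Rats are separate samples in the labels, and the number of arrays limits the precision. Rat numbers do not pair groups: residuals of same-numbered rats correlated at −0.273 to 0.123. The largest correlation of 2 arrays was 0.9852, and none were identical. Scripts were tested on simulated data. Promoter windows come from RefSeq, build GRCr8.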

Additional observations from a re-analysis of the deposited data

Results flagged for a closer look

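Several genes had a rat that stood far from the other 3 of its group, by a gap above Dixon's 95% critical value (7 of 106 sets of 4 rats met this). In 3 of these sets the other 3 rats were at the floor, where any value above it meets the limit, and 4 of the remaining 103 sets met it, where chance gives about 1 in 20. Cyp4b1 (12.64) and Gstm2 (11.44) were both lowest in 18 h Mild PE rat 4, whose array is 1 of those with the highest Gapdh ratios; the part of the ratio in these values was not tested. Aox1 was 8.67 in 2 h Mild PE rat 3 and Cyp2f4 12.17 in 2 h Mild PE rat 1. Ces1c (4.58 in 2 h Severe PE rat 3) and Ugt2b10 (4.30 in 2 h Mild PE rat 2 and 4.56 in 18 h Severe PE rat 3) left a floor that the rest of the group shared.

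The Severe PE effect differed between 18 h and 2 h, by limma's contrast on all 22 arrays, for Aox1 (−3.91), Ces1e (−1.13), Cyp1a1 (−4.88), Cyp2f4 (−1.67), Cyp2s1 (−1.52), Cyp4b1 (−0.70), Fmo1 (−1.21), Gsta4 (−1.12), Gstm2 (−0.95), Gstm7 (−1.90), Gstt1 (−0.76) and Sult5a1 (−1.17), with adjusted p-values from 0.000767 to 0.0456. The Mild PE effect differed for Gstm7 (−1.41) and Gstt1 (−0.86). For Gstt1 the Vehicle rats themselves were 0.57 ± 0.17 (SE) higher at 18 h than at 2 h, which did not pass its own test (adjusted p = 0.27).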

How the results depend on the processing

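Counts of enzyme genes that passed are given per alternative setting, and the cause of a change was not tested. Calls over all genes changed as well. In 18 h Severe PE they went from 1408 to 827 without limma's moderation and 2268 in the fit on all 22 arrays. They went to 813 without the 4 arrays of highest Gapdh ratio and 0 with the rat number as a replicate block. In the same order the 204 of 18 h Mild PE became 29, 958, 3 and 0, and the 61 of 2 h Mild PE became 8, 90, 62 and 0. In 18 h Severe PE against Vehicle the 16 became 10 without limma's moderation, 28 in the fit on all 22 arrays, 10 without the 4 arrays of highest Gapdh ratio and 0 with the rat number as a replicate block, although rat numbers do not pair these groups; median centring, no further normalization, the variance trend, the floor of 64 and the filter on a mean log2 signal of 6 gave 14 to 20. In 18 h Mild PE the 2 became 1 by median centring, 5 with the filter on dim genes, 1 without moderation, 10 in the fit on all arrays, 0 without the 4 arrays and 0 with the replicate block. In 2 h Mild PE the 1 became 0 with the filter, without moderation, in the fit on all arrays and with the replicate block, and 2 without the 4 arrays; with the floor of 64 it stayed 1 but no longer held Ces1c (adjusted p = 1). Severe against Mild PE went from 0 to 2 at 2 h and 4 at 18 h in the fit on all arrays. It went to 1 at either time without the 4 arrays. Over all genes the fit on all arrays took it from 78 to 109 at 2 h and from 0 to 210 at 18 h. Without the 4 arrays those counts were 174 and 42. Genes whose Mild PE effect differs between times went from 2 to 1 by median centring, with the replicate block and without the 4 arrays, and interaction from 7 to 11 with the filter. The replicate block changed none of the other counts by over 1.5 times (time 20, dose 12, interaction 6, Severe PE effect 10).

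Leaving out 1 rat at a time gave 7 to 12 for 18 h Severe PE, 1 to 4 for 18 h Mild PE, 0 to 2 for 2 h Mild PE, 0 to 1 for Severe against Mild PE at 2 h and at 18 h, 4 to 11 for interaction, 0 to 4 for the change of the Mild PE effect, 8 to 14 for that of the Severe PE effect, 14 to 18 for dose and 19 to 23 for time. The extremes came without rat 3 of 18 h Mild PE (4 in Mild PE), rat 1 of 2 h Severe PE (11 for interaction and 4 for the Mild PE effect) and any 2 h Vehicle rat or rat 1 or 2 of 18 h Vehicle (4 for interaction). Over all genes, leaving out 1 rat gave 3 to 316 calls in 18 h Mild PE against 204. All 16 differences stayed below zero in every setting run. Sult1a1, at −0.04 in 18 h Severe PE, turned to 0.01 by median centring, 0.04 without further normalization and 0.03 without the 4 arrays (−0.19 to 0.06 leaving out 1 rat), and Ces1c, at 0.12, turned to −0.17 without the 4 arrays (−0.18 to 0.70). Median centring moved the median difference of all genes from 0.06 to 0.19 in the Vehicle comparison of 18 h and 2 h.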

Other observations

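Of the 9 probe sets that name several xenobiotic enzymes at once, 1 passed in 18 h Severe PE. It reads Ces1f and Cesl1 together and fell by 0.81 on the log2 scale (SE 0.12, limma adjusted p = 0.0192). A pair of probe sets shared by 8 Ugt1a genes had higher means in Severe PE, by 0.66 ± 0.19 and 0.71 ± 0.19 (adjusted p = 0.0893 and 0.0745), without passing. The probe set shared by Cyp2b1 and Cyp2b2, the P450 pair that is abundant in rat lung, differed by −0.80 ± 0.27 (adjusted p = 0.129). The one shared by Cyp2d1 and Cyp2d5 differed by −0.02 ± 0.40. At 2 h, however, this Cyp2d1 and Cyp2d5 probe set passed between Severe and Mild PE (2.25 ± 0.26, limma adjusted p = 0.026). Against the 2 h Vehicle rats it differed by −1.48 ± 0.24 in Mild PE and 0.77 ± 0.31 in Severe PE (adjusted p = 0.0905 and 0.649).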
